A study of Mus musculus with 14 samples.

Results

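Complement and coagulation factors were followed as 41 listed mouse genes, of which 37 were read on a probe set that the array annotation gives to 1 gene symbol. The whole table held 19938 genes measured in that way. Each member was read on its probe set with the highest mean signal, as log2 values made with RMA, an array summary that puts all arrays on 1 scale. Cpb2, C3 and Cfd had no probe set with a single symbol and Klkb1 shared its probe set with another gene, so these 4 were not analysed here. Signals of different genes come from different probes, so levels were compared within a gene, never between genes.

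Complement is a chain of plasma proteases and pore-forming proteins that marks and lyses microbes. It is started by antibody, by lectins that bind foreign sugars or by a slow turnover that factor B amplifies, and it is held back by factor I, C4b-binding protein and membrane proteins. Coagulation is a second protease chain, started where blood meets tissue factor and ended by thrombin cutting fibrinogen to fibrin, which plasmin later removes. Hepatocytes are the textbook source of most of these plasma proteins, while tissue factor and the plasminogen activators are made by many epithelial and vascular cells.

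All material came from C57BL/6 mice and was measured on 14 arrays, 2 in each of 7 groups. Organoids, which are epithelial cultures grown in Matrigel, were made from gallbladder, liver or small intestine. Their shared medium held HGF, EGF and FGF10, nicotinamide, N-acetylcysteine, the supplements N2 and B27, and noggin and R-spondin 1 as conditioned media. Differentiated gallbladder organoids had spent 2 weeks without nicotinamide, noggin and R-spondin 1. The remaining groups were whole gallbladder, liver and small intestine tissue, and the labels name no transgene. Age and sex were not given in the labels. Nothing in the labels says that the arrays of a group came from separate animals or cultures, so p-values measure the spread between these arrays only. That spread may be technical, save in gallbladder tissue, whose 2 arrays differed in sex-linked genes.

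The members varied little between organoid arrays of a group, with a pooled SD of 0.107 to 0.136 log2 units, against 0.345 in liver tissue, 0.479 in intestine tissue and 1.65 in gallbladder tissue. Gallbladder tissue replicate 2 stood apart. It had Xist at 5.46 and the Y-linked Eif2s3y at 10.02. On the other 13 arrays Xist was 11.57 or higher and Eif2s3y 4.0 or lower. The 2 gallbladder tissue arrays thus came from material of different sex. Counts that rest on replicate 2, and differences that it moves most, are given with and without it. The 16 measured hepatocyte markers averaged 13.5 and 13.33 in liver tissue, 11.75 and 13.05 in gallbladder tissue, and 9.73 and 9.66 in intestine tissue. Their means were 9.54 and 9.34 in intestine organoids and 7.27 to 7.52 in the gallbladder, differentiated and liver organoids. The intestine means were uneven over the list. In intestine organoids Apoa1 read 13.61 and 13.47 and Cps1 12.93 and 13.21, whereas Tat read 6.36 and 6.22 and Tdo2 4.88 and 4.77. The mean of these markers was no higher in liver organoids than in gallbladder organoids, though single markers differed. Of the 16, 1 was called higher and 1 lower in gallbladder than in liver organoids. Ttr read 12.67 and 12.56 in liver and 10.15 and 10.45 in gallbladder organoids, and Rbp4 6.35 and 6.66 against 9.35 and 9.27. Alb, the main plasma protein of hepatocytes, read 6.36 and 6.04 in them and 14.34 and 14.35 in liver tissue, while the duct keratin Krt19 read 13.76 and 13.77 in them and 7.29 and 7.41 in liver tissue.

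**Figure D1:**
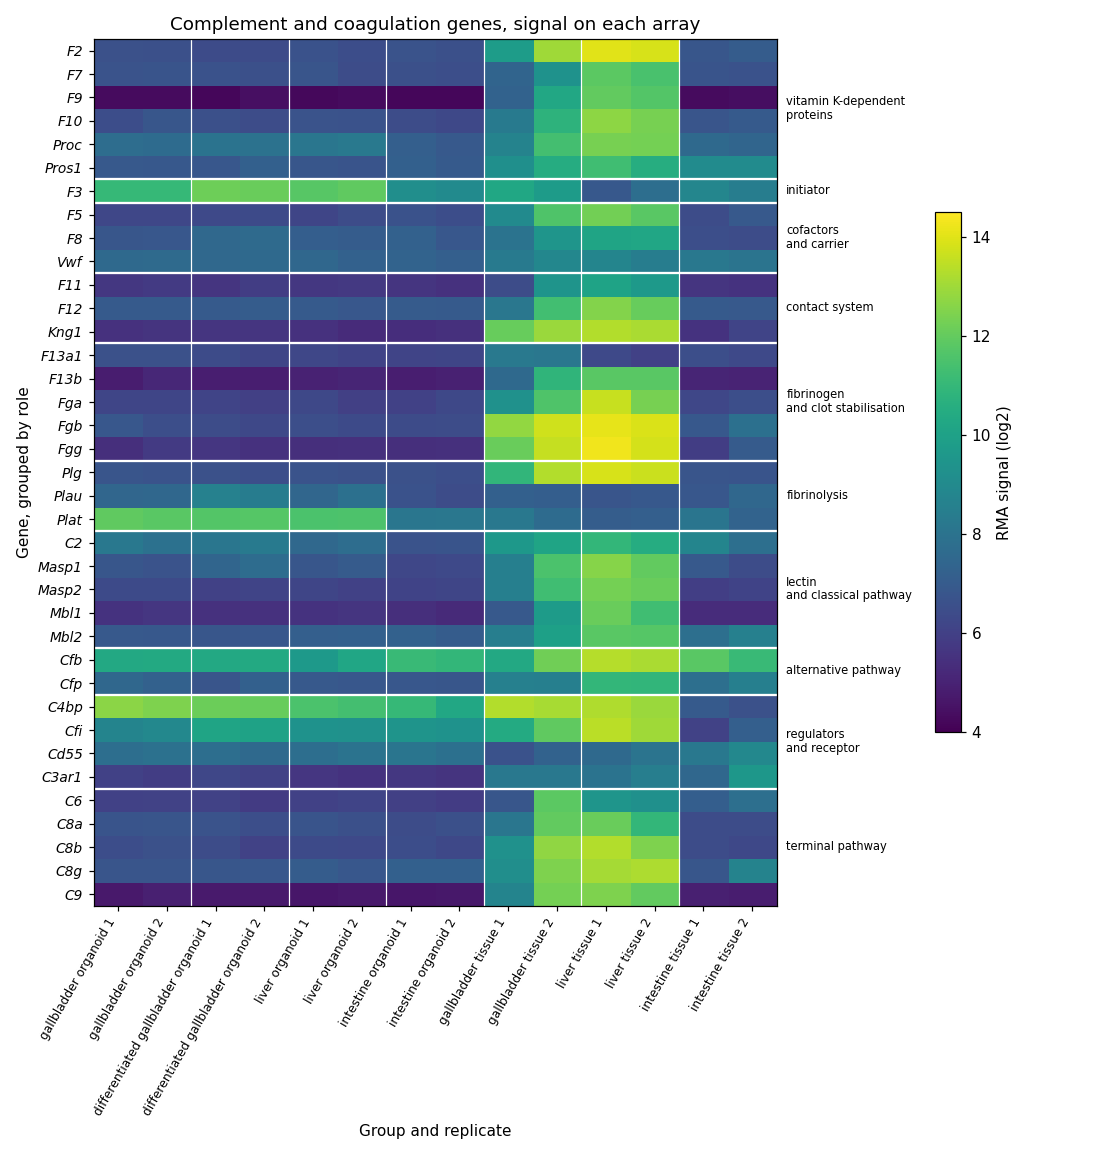
Log2 RMA signal (colour scale) of the 37 measured genes in rows, grouped by role, on the 14 arrays in columns. Most rows are bright in liver tissue and in gallbladder tissue and dark in all 8 organoid arrays, while F3 and Plat are bright in gallbladder and liver organoids, and C4bp in every group but intestine tissue.

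The members were sorted by source with a rule that used the group means, so the sorting is a description with no test. A gene counted for a source when its mean there was at least 2 log2 units above the lowest of its own 7 group means. The sources were liver tissue and the 4 organoid groups, and gallbladder and intestine tissue were not sorted. By that rule 29 members stood up in liver tissue and in no organoid group, a class named liver tissue alone in the figures. A further 2 stood up in both liver tissue and organoids (C4bp and Cfi). The rest were 2 in organoids and not in liver tissue (F3 and Plat) and 4 in neither (F13a1, Plau, Vwf and Cd55). Other tissues could be high for the 29: Kng1 averaged 12.5 in gallbladder tissue and 13.22 in liver tissue, and C3ar1 8.53 in intestine tissue and 8.24 in liver tissue. Among the 29, liver tissue lay 2.64 to 8.6 log2 units above the lowest group, with a median of 6.01. The highest organoid mean lay 0.09 to 1.54 above it. The rule itself keeps the liver rise of this class at 2 or more and the organoid rise under 2. In 22 of the 29 the 4 organoid means lay within 0.5 log2 units of each other. Closest to the boundary were Plau at 1.97 and C2 at 1.54 just outside for organoids and Cfi at 3.46 just inside, and, for liver, Vwf at 1.34 outside and C3ar1 at 2.64 inside. With a minimum of 1 log2 unit, 7 members counted for both sources and 2 for neither. Factor B (Cfb) is placed by its rise alone: its organoid means were 9.92 to 11.04, high on the array scale, and its lowest group was itself an organoid group.

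**Figure D2:**
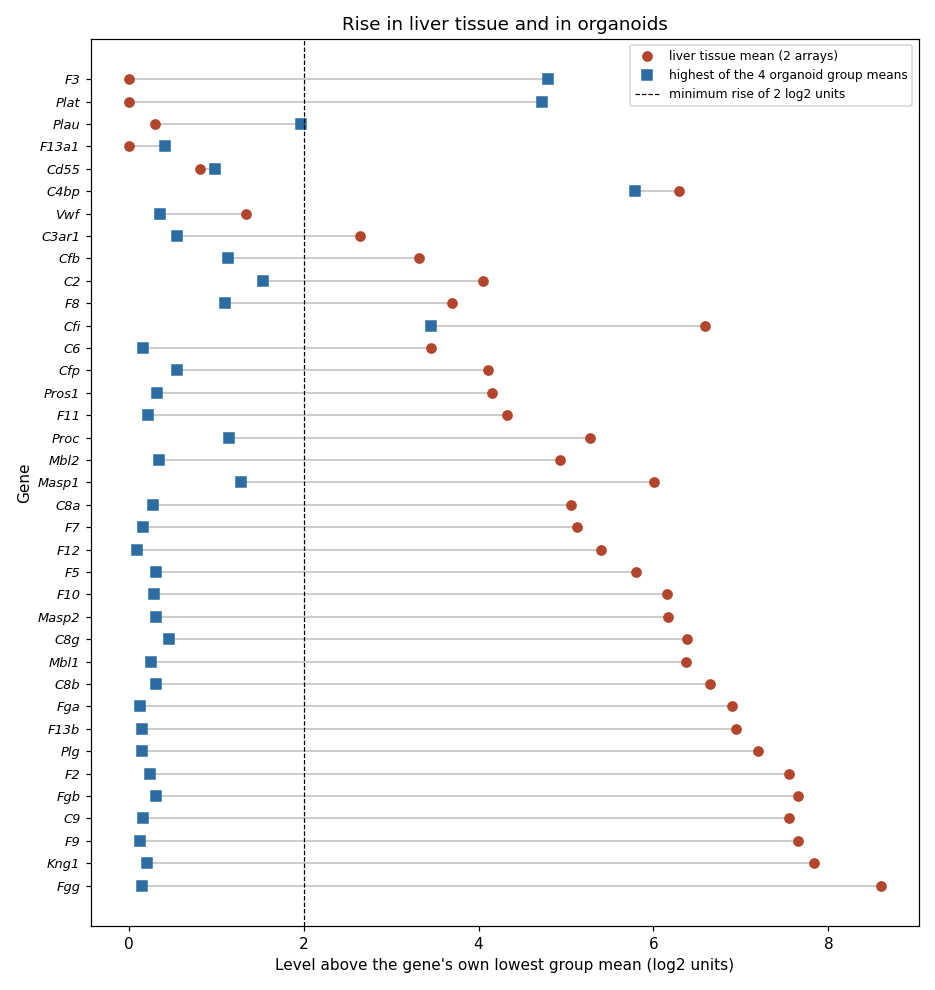
For each of the 37 genes (vertical axis), the liver tissue mean (circle) and the highest of the 4 organoid means (square), in log2 units above the gene's own lowest group mean (horizontal axis), with the minimum of 2 as a dashed line. Circles lie far right of squares for most genes, with Fgg at 8.6, whereas F3 and Plat have their circle at 0 and their square past 4.

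Promoter sequence was set beside these groups, because members that share a liver pattern may or may not share letters near their start sites. RefSeq promoters on GRCm38.p6, of 300 bases with 50 of them after the start site, were given for 27 of the 37 members, as 29 promoters. Of 5 motifs searched on both strands, the HNF1 half-site GTTAAT stood in 9 of 29 member promoters, or 31%, against 7.1% of all 32851 promoters. It stood in 7 of 24 promoters of members high in liver tissue and not in organoids. It also stood in that of C4bp and in 1 of 3 of members in neither class, that of Cd55. In F2 and Cd55 it lay after the start site. The longer match GTTAATNAT, which contains the half-site, stood in 3 of 29 against 0.801% of all. The HNF4 core CAAAGTCCA (0.475% of all) and the C/EBP motif TTNCGCAA (0.798% of all) stood in none of the 29, which says only that these letters are not in these windows. The NF-kB motif GGNNTTTCC stood in 3 of 29, those of F3, C3ar1 and F13a1, against 5.82% of all.

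The 3 promoters with the longer HNF1 match are printed because they come from different source groups. C4bp was high in liver tissue and organoids, and F13b and Fga in liver tissue and not in organoids. The match ran from base -64 to -56 before the C4bp start on the gene's own strand, from -54 to -46 in F13b and from -46 to -38 in Fga, both on the opposite strand. Fgb, which holds the half-site alone at -29 to -24, and F3, which holds the NF-kB letters at -112 to -104, are printed beside them. Each run is the 250 bases before the start, read along the gene's strand, with the motif in capitals. The C4bp stretch is chr1:130661619-130661868 on the minus strand and the F13b stretch chr1:139501457-139501706 on the plus strand. Fga lies at chr3:83025903-83026152 on the plus strand, Fgb at chr3:83049864-83050113 on the minus strand and F3 at chr3:121723287-121723536 on the plus strand.
C4bp: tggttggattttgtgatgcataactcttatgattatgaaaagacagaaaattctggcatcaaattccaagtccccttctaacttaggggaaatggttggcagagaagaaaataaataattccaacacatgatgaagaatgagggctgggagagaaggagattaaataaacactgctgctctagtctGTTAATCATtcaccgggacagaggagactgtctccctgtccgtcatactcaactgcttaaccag
F13b: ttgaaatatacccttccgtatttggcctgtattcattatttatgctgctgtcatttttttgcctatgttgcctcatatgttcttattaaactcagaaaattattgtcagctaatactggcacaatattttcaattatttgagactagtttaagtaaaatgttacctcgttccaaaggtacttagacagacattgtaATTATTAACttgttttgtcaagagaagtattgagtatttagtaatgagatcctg
Fga: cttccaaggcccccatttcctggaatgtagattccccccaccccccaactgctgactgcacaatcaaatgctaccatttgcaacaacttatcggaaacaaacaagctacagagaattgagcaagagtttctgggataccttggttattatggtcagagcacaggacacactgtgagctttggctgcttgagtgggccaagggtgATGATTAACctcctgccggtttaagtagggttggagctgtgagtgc
Fgb: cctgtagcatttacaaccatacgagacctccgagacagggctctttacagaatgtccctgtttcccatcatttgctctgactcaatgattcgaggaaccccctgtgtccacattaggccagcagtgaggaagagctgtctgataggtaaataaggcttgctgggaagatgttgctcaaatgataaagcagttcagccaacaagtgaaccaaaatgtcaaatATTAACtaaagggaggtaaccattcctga
F3: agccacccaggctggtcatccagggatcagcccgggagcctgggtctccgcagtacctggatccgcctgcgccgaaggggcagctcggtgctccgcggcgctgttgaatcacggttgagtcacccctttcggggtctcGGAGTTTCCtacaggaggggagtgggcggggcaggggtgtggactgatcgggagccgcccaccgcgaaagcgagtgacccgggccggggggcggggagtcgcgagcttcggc

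A match is a description of letters and not a bound site.

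Tissue against tissue came first. Of the 37 members, 29 were higher in liver than in intestine tissue and 1, F3, was lower, at an adjusted p below 0.05 by limma with Benjamini-Hochberg adjustment over all genes. Among all genes 18.7% were called higher and 18.8% lower, and the median difference was 5.36 log2 units over the members and 0.04 over all genes. Not called were F13a1, Plau, Plat, Vwf, C6, Cd55 and C3ar1. Hepatocyte markers moved with this result, 11 of 16 being called higher, and in whole tissue fewer cells of a type and less RNA per cell cannot be told apart. Their part in it was not tested.

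The fall from liver tissue to liver organoids covered nearly the whole list. Lower were 32 of 37 members beside 18.2% of all genes, and higher were 3 (F3, Plat and Plau) beside 26.7%. The median difference was -4.88 over the members and 0 over all genes. F13a1 and Cd55 were not called, at differences of 0.01 and 0.08. In the same comparison 15 of 16 hepatocyte, 10 of 10 endothelial and 9 of 10 fibroblast and smooth muscle markers fell. Of 12 macrophage and myeloid markers 10 fell and 1 rose, and 7 of 7 epithelial markers rose. The part of all these markers in the members' fall was not tested.

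Gallbladder gave a like count. From gallbladder tissue to gallbladder organoids 32 members fell beside 15.2% of all genes, and 3 rose (F3, Plat and Cd55) beside 32.7%, with a median of -2.76 over the members and 0.17 over all genes. Cfb and Plau were not called. Without gallbladder tissue replicate 2 the counts were 31 lower and 2 higher with a member median of -1.61, and without replicate 1 they were 32 and 2 with a median of -4.15. Falling in both organs were 31 members, and F3 and Plat rose in both. Hepatocyte markers fell in gallbladder as well, 14 of 16, with 10 of 10 endothelial and 10 of 10 fibroblast and smooth muscle markers. Of 12 macrophage and myeloid markers 9 fell and 3 rose. The part of all these markers was not tested.

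Intestine had 9 calls among the members, and its culture difference was not tested against that of liver. From intestine tissue to intestine organoids 7 members fell beside 15.6% of all genes and 2, C4bp and Cfi, rose beside 20.2%, with a median of -0.25 over the members and -0.02 over all genes. Falling there were Fgb, Plau, Pros1, Vwf, C2, Cfp and C3ar1, of which all but Plau fell in all 3 organs. Endothelial markers fell in 7 of 10 cases, macrophage and myeloid markers in 7 of 12 and fibroblast and smooth muscle markers in 10 of 10. Of 16 hepatocyte markers 3 fell and 2 rose. Their part was not tested.

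Vitamin K-dependent proteins, the serine proteases and their partners that need carboxylation to bind membranes, were liver-high throughout. Factor IX (F9), which activates factor X, read 11.97 and 11.71 in liver tissue, 4.24 and 4.31 in liver organoids, 4.3 and 4.37 in intestine tissue and 7.31 and 10.29 in gallbladder tissue. Both liver tissue arrays lay above every other array, and the 2 gallbladder tissue arrays were far apart. Liver organoids were lower than liver tissue (difference -7.57 ± 0.68, SE, n = 2 arrays per group, limma adjusted p = 9.82e-06).

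Prothrombin (F2), the precursor of thrombin, read 14.01 and 13.88 in liver tissue, 6.66 and 6.5 in liver organoids and 9.79 and 13.02 in gallbladder tissue. No array outside liver and gallbladder tissue was above 7.04. The liver organoid difference was -7.37 ± 0.73 (limma adjusted p = 1.96e-05). Factor X (F10), which converts prothrombin, read 12.73 and 12.34 in liver tissue against 6.68 and 6.66 in liver organoids (difference -5.86 ± 0.58, limma adjusted p = 1.84e-05). Factor VII (F7), the protease that tissue factor activates, fell by 5.06 from a mean of 11.67.

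Protein C (Proc) and protein S (Pros1), which together switch off the cofactors, had some signal outside liver. Proc averaged 12.32 in liver tissue and 8.2 in liver organoids, and its organoid means ranged over 1.15 log2 units, with intestine organoids lowest at 7.05. Pros1 read 9.08 and 9.06 in intestine tissue, between the organoids and liver tissue at 11.3 and 10.54. In intestine culture it fell by 1.98 log2 units (difference -1.98 ± 0.36, limma adjusted p = 0.00167), unlike the other 5 vitamin K-dependent members, which were not called there.

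The cofactors factor V (F5) and factor VIII (F8), which speed the proteases up, were also liver-high. F5 read 12.26 and 11.82 in liver tissue and 6.18 and 6.46 in liver organoids (difference -5.72 ± 0.61, limma adjusted p = 3.11e-05). F8, whose product is known mainly from sinusoidal endothelium, read 10.13 and 10.23 in liver tissue and 7.13 and 7.06 in liver organoids. The groups did not overlap, and the difference was -3.09 ± 0.36 (limma adjusted p = 5.54e-05). Its carrier von Willebrand factor (Vwf), an endothelial product, was lower in organoids of each organ, with differences of -1.22 in liver, -0.95 in gallbladder and -0.87 in intestine (SE 0.18 each, limma adjusted p = 0.000329, 0.00214 and 0.00424). Mean endothelial marker signal was 6.6 to 6.84 over the organoid arrays and 7.97 to 9.86 over the tissue arrays, and its part in the Vwf result was not tested.

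The contact system members were called lower in organoids than in tissue for both liver and gallbladder. Kininogen (Kng1), the precursor of bradykinin, read 13.29 and 13.15 in liver tissue and 12.06 and 12.93 in gallbladder tissue, and between 5.3 and 6.15 on the 10 remaining arrays. Thus both gallbladder tissue arrays were close to liver. Culture differences were -7.83 ± 0.25 in liver (limma adjusted p = 2.09e-08) and -6.96 ± 0.25 in gallbladder (limma adjusted p = 5.31e-08), the latter -6.53 without gallbladder tissue replicate 2. Factor XII (F12), which contact with charged surfaces activates, fell by 5.4 in liver culture, and factor XI (F11), its substrate, fell by 4.13.

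All 3 fibrinogen chains were among the deepest falls. The gamma chain gene Fgg read 14.26 and 13.81 in liver tissue, 12.12 and 13.57 in gallbladder tissue, 5.91 and 7.03 in intestine tissue and 5.41 to 5.77 over the 8 organoid arrays. Organoid and liver tissue arrays were far apart, and the liver difference of -8.6 ± 0.44 (limma adjusted p = 2.51e-07) had the largest size of any member in this comparison. Fgb, the beta chain, fell by 7.56 ± 0.33 (limma adjusted p = 9.45e-08) and Fga, the alpha chain, fell by 6.83 ± 0.61 (limma adjusted p = 9.33e-06). The liver means of Fgg and Fgb, 14.03 and 14.01, lie near the top of the array scale, where the highest signals were 14.55 to 14.78, so differences there can be understated.

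Fgb and Fgg also read higher on intestine tissue replicate 2, at 7.86 and 7.03, than on replicate 1, at 6.91 and 5.91. For Fgb the intestine organoid difference of -0.97 ± 0.33 (limma adjusted p = 0.0438) was lost without any 1 of 11 arrays, at adjusted p values of 0.0552 to 0.298, and under quantile normalisation (adjusted p = 0.0705). Without intestine tissue replicate 2 it was -0.49. Factor XIII has a catalytic chain, F13a1, and a carrier chain, F13b, and these 2 were unlike. F13b averaged 11.83 in liver tissue and fell by 6.79 in liver organoids. F13a1, known from macrophages and platelets, averaged 6.18 in liver tissue but read 8.25 and 8.17 in gallbladder tissue, the only group in which it was above 6.6. It was lower in liver than in gallbladder tissue (difference -2.03 ± 0.12, limma adjusted p = 1.6e-06), with the mean macrophage and myeloid marker signal at 9.79 and 9.7 in liver tissue and 8.29 and 8.58 in gallbladder tissue.

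Complement genes of the lectin and classical pathways followed the clotting factors. Mannose-binding lectin 1 (Mbl1), which recognises microbial sugars, read 12.1 and 11.3 in liver tissue and 5.52 and 5.63 in liver organoids (difference -6.13 ± 0.66, limma adjusted p = 3.46e-05). Masp2, the protease it carries, averaged 12.2 in liver tissue and 6.11 in liver organoids (difference -6.09 ± 0.62, limma adjusted p = 2.33e-05). Masp1, its partner protease, averaged 12.29 and 6.91 (difference -5.39 ± 0.7, limma adjusted p = 0.000123). In each of these genes both liver tissue arrays lay above both organoid arrays by more than 4 log2 units. Mbl2, the second lectin, fell by 4.58.

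C2, the protease shared by both pathways, kept more signal in organoids. It read 10.97 and 10.52 in liver tissue, 8.21 and 7.92 in gallbladder organoids, 7.56 and 7.76 in liver organoids and 6.67 and 6.73 in intestine organoids. Intestine organoids were the lowest group, and the 3 organoid origins did not overlap. C2 fell in culture in all 3 organs, with differences of -3.08 in liver, -1.79 in gallbladder and -1.61 in intestine (SE 0.29 each).

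In the alternative pathway, Cfb encodes the protease of the amplifying enzyme and Cfp encodes properdin, which steadies it. Cfb read 13.33 and 13.16 in liver tissue, 11.8 and 11.11 in intestine tissue, 11.12 and 10.97 in intestine organoids, 10.35 and 10.39 in gallbladder organoids and 9.62 and 10.21 in liver organoids. Its arrays in intestine tissue and intestine organoids overlapped. Liver organoids were lower than liver tissue (difference -3.32 ± 0.48, limma adjusted p = 0.000263). Gallbladder and intestine gave -0.91 (limma adjusted p = 0.15) and -0.41 (limma adjusted p = 0.581). In gallbladder tissue Cfb read 10.32 on replicate 1, close to the gallbladder organoids, and 12.23 on replicate 2, so the -0.91 rested on replicate 2. Differentiated organoids read 10.35 and 10.38. Cfp, known from myeloid cells, read 10.96 and 10.91 in liver tissue and 6.94 and 6.87 in liver organoids (difference -4.03 ± 0.21, limma adjusted p = 2.96e-07). In gallbladder tissue it read 8.58 and 8.52.

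Terminal pathway genes build the membrane pore. C9, which forms the ring, read 12.45 and 11.98 in liver tissue, 8.74 and 12.29 in gallbladder tissue, and 4.62 to 4.94 on the other 10 arrays. C8b and C8g, 2 chains of the C8 complex, differed between liver organoids and liver tissue by -6.56 ± 0.8 (limma adjusted p = 7.94e-05) and by -6.2 ± 0.86 (limma adjusted p = 0.000193). C8a, the third chain, fell by 4.88. C6 had the least certain call, though its arrays lay close within liver tissue, at 9.46 and 9.29, and within liver organoids, at 6.03 and 6.14. In gallbladder tissue it read 6.83 and 11.87, and that spread enters the SE, which is shared over all groups. Its liver organoid difference of -3.3 ± 1.15 passed narrowly (limma adjusted p = 0.0393) and was lost without any 1 of 10 arrays, at adjusted p values of 0.0562 to 0.128.

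C3ar1, the receptor for the C3a fragment on myeloid cells, was a receptor rather than a plasma protein and had another pattern. It read 8 and 8.49 in liver tissue, 8.19 and 8.19 in gallbladder tissue, 7.51 and 9.55 in intestine tissue and 5.54 to 6.23 over the organoid arrays. Tissue and organoid arrays did not overlap. Differences were -2.64 in liver, -2.22 in gallbladder and -2.9 in intestine (SE 0.48 each, limma adjusted p = 0.00114, 0.00393 and 0.000952). Mean macrophage and myeloid marker signal was 6.95 to 7.35 over organoid arrays and 7.91 to 9.79 over tissue arrays, and its part was not tested.

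Liver and gallbladder tissue were then compared. Higher in liver were 25 members beside 27.4% of all genes, and lower were 3 (F3, F13a1 and Plat) beside 20.7%, with a median of 1.71 over the members and 0.09 over all genes. Centring each array on its median moved the all-gene median from 0.09 to 0.21. Neither C4bp, at 13.08 and 13.21, nor Fgb, C6, C8a, C8b, C9, C3ar1, Plau and Vwf were called. The count rested on single arrays: it was 11 without liver tissue replicate 1, 16 without liver tissue replicate 2, 17 without gallbladder tissue replicate 1 and 30 without gallbladder tissue replicate 2. The member median was 0.49 without gallbladder tissue replicate 1 and 2.93 without replicate 2.

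The spread lay in gallbladder tissue. Replicate 2 was above replicate 1 in 27 of the 29 members high in liver tissue and not in organoids. The median gap was 2.58 log2 units, with a range of -0.06 to 5.04, and 24 gaps were over 1. Over all genes the median gap was -0.02, with 5th and 95th percentiles of -0.64 and 0.84. Hepatocyte markers moved with it, replicate 2 being above replicate 1 in 14 of 16, by a median of 1.38, and their part was not tested. The members' median distance to liver tissue was -3.45 for replicate 1 and -0.72 for replicate 2, and that of the hepatocyte markers -1.82 and -0.24. C6, C8a and C9 on replicate 2 were above the liver mean, by 2.49, 0.44 and 0.08. On replicate 1 none of the 29 was above it. Replicate 2 was also the 1 array with low Xist and high Eif2s3y, at 5.46 and 10.02. The part of that difference in the gap was not tested and cannot be told apart from others between these 2 arrays.

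Some members did not share that gap. C4bp read 13.29 and 13.13, Cfp 8.58 and 8.52, C3ar1 8.19 and 8.19, and F13a1 8.25 and 8.17 on the 2 gallbladder tissue arrays. These 4 pairs lay within 0.17 log2 units, and F3 and Plat were lower on replicate 2, with gaps of -0.48 and -0.53.

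**Figure D3:**
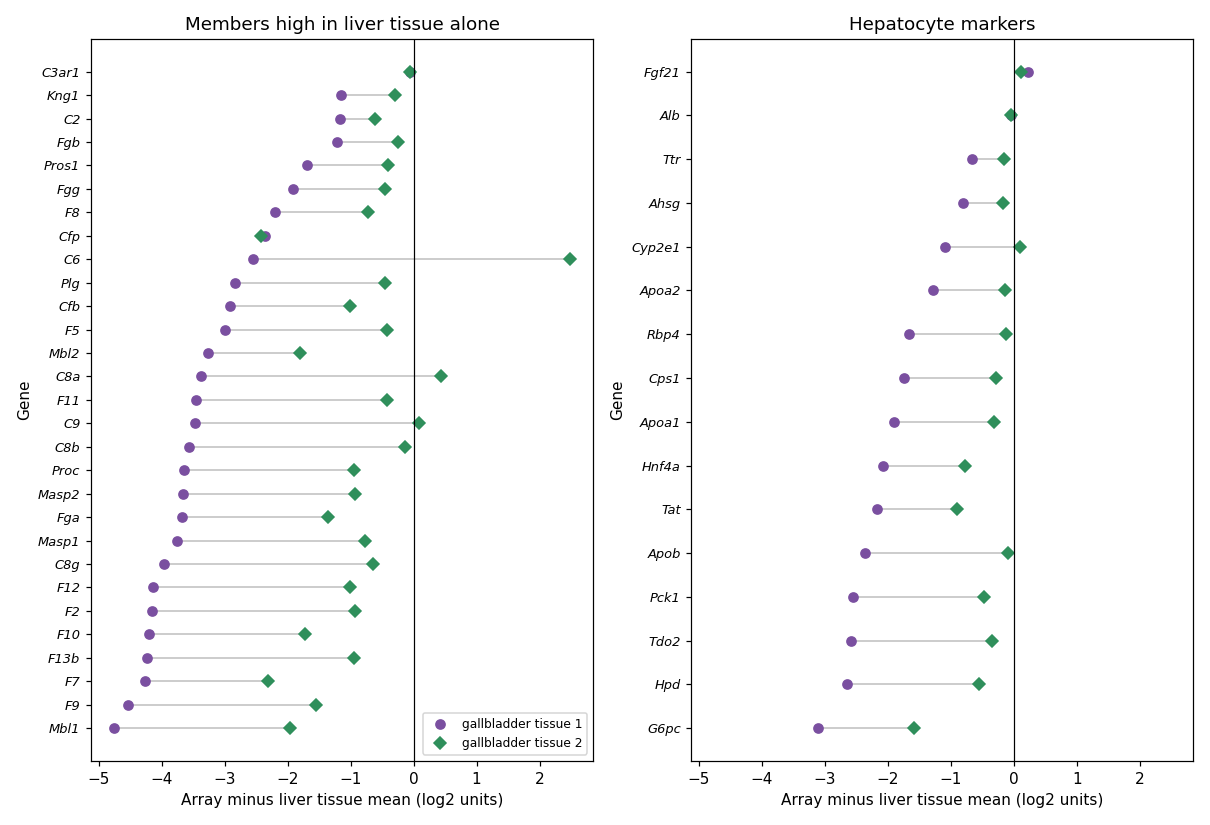
Distance of each gallbladder tissue array from the liver tissue mean (horizontal axis, log2 units), with replicate 1 as circles and replicate 2 as diamonds. On the left are the 29 genes high in liver tissue and not in organoids, and on the right 16 hepatocyte markers. Diamonds lie right of circles for nearly all genes, the widest pair being C6 at -2.55 and 2.49.

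The members that met the minimum in organoids, and Cfb and Plau beside them, had different roles. C4b-binding protein (C4bp), a plasma inhibitor of the classical pathway enzyme, read 12.69 and 12.48 in gallbladder organoids, 12.13 and 12.08 in differentiated organoids, 11.54 and 11.37 in liver organoids, 11.05 and 10.28 in intestine organoids and 6.96 and 6.62 in intestine tissue. Intestine tissue was alone in being low, and the 4 organoid groups did not overlap. The rise from intestine tissue to intestine organoids was 3.87 ± 0.23 log2 units (14.6-fold, limma adjusted p = 2.1e-06).

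In the other organs C4bp was lower in organoids than in tissue. Liver organoids differed from liver tissue by -1.63 ± 0.23 (limma adjusted p = 0.000191). For gallbladder the difference of -0.63 ± 0.23 (limma adjusted p = 0.0427) was lost on leaving out any 1 of 8 arrays, with adjusted p values of 0.0574 to 0.193, and under median centring (-0.59, adjusted p = 0.0558). Among these arrays were gallbladder tissue replicate 2 (-0.71, adjusted p = 0.0653) and replicate 1 (-0.54, adjusted p = 0.146).

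Factor I (Cfi), the protease that cuts C3b and C4b with such cofactors, moved in the same direction as C4bp in each organ. It read 13.41 and 13.02 in liver tissue, 10.41 and 11.94 in gallbladder tissue, 6.06 and 7.19 in intestine tissue, 9.44 and 9.35 in intestine organoids, 9.37 and 9.33 in liver organoids, 8.74 and 8.91 in gallbladder organoids and 10.12 and 10.06 in differentiated organoids. Every organoid array lay above intestine tissue and below liver and gallbladder tissue. The rise in intestine culture was 2.77 ± 0.44 (6.82-fold, limma adjusted p = 0.000772), while it fell by 3.86 in liver and fell by 2.35 in gallbladder, where the difference was -1.59 without gallbladder tissue replicate 2.

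Tissue factor (F3), the membrane receptor that starts clotting, read 11.03 and 11.02 in gallbladder organoids, 12.17 and 12.1 in differentiated organoids, 11.79 and 11.95 in liver organoids, 9.17 and 9.03 in intestine organoids, 10.24 and 9.76 in gallbladder tissue, 8.81 and 8.46 in intestine tissue and 6.9 and 7.8 in liver tissue. Liver tissue was lowest and no organoid array of liver or gallbladder origin overlapped any tissue array. Liver organoids exceeded liver tissue by 4.52 ± 0.26 (23-fold, limma adjusted p = 5.05e-07), and gallbladder organoids exceeded gallbladder tissue by 1.03 ± 0.26 (limma adjusted p = 0.0087). The latter was lost without gallbladder tissue replicate 2, at 0.79 and an adjusted p of 0.0557. Intestine gave 0.47 (limma adjusted p = 0.2).

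Tissue plasminogen activator (Plat), which turns plasminogen into plasmin, read 11.94 and 11.81 in gallbladder organoids, 11.7 and 11.73 in differentiated organoids and 11.53 and 11.58 in liver organoids, but 8.12 and 8.18 in intestine organoids. All tissue arrays lay between 7.1 and 8.22. Rises over tissue were 3.92 ± 0.22 in gallbladder (15.1-fold, limma adjusted p = 8.59e-07) and 4.42 ± 0.22 in liver (21.4-fold, limma adjusted p = 2.39e-07), and intestine gave 0.43 (limma adjusted p = 0.181). Epithelial markers moved with the liver result, at means of 9.52 and 9.17 in liver tissue and 13.28 and 13.34 in liver organoids, and their part in the rises of F3 and Plat was not tested. In gallbladder they were at 12.05 and 11.72 in tissue and 13.11 on both organoid arrays, with 3 of 7 called higher.

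The substrate of Plat, plasminogen (Plg), ran the other way. It read 13.86 and 13.67 in liver tissue and 6.67 and 6.62 in liver organoids (difference -7.12 ± 0.54, limma adjusted p = 3.3e-06). The second activator, urokinase (Plau), read from 6.44 in intestine organoids to 8.62 in differentiated organoids. It rose in liver culture by 0.84 ± 0.21 (limma adjusted p = 0.0071), which was lost without liver organoid replicate 2 (0.63, adjusted p = 0.0738), and in intestine culture it fell by 0.63 ± 0.21 (limma adjusted p = 0.0381), which was lost without intestine tissue replicate 2 (-0.3, adjusted p = 0.265) and without 6 other arrays. Cd55, a membrane protein that breaks down complement enzymes, averaged 7.86 in gallbladder organoids and 6.99 in gallbladder tissue (difference 0.87 ± 0.26, limma adjusted p = 0.0212), which was lost without gallbladder tissue replicate 1 or either gallbladder organoid array.

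**Figure D4:**
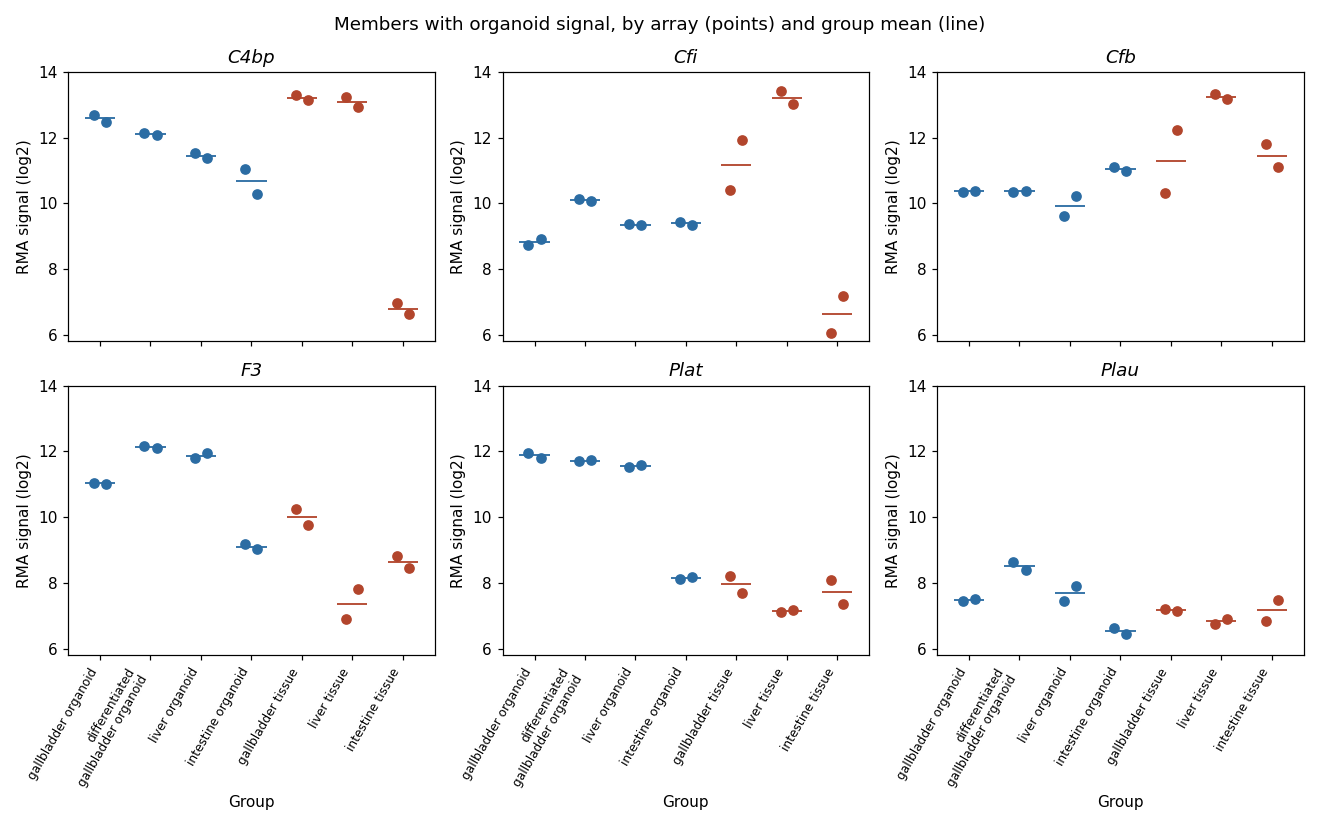
Log2 RMA signal (vertical axis) of 6 genes on each array (points) with the group mean (line) in the 7 groups, organoids in blue and tissues in red. C4bp and Cfi are low only in intestine tissue, Plat is high in the 3 organoid groups of gallbladder and liver origin, and Cfb is above 9.6 on every array.

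Between organoids of different origin the shares of members called were near or below those of all genes. Gallbladder organoids exceeded intestine organoids in 6 members beside 20.2% of all genes: Plat by 3.72 (13.2-fold), F3 by 1.92, C4bp by 1.92, C2 by 1.37, Plau by 0.95 and F13a1 by 0.41 log2 units. Of these F13a1 was lost under quantile normalisation, at 0.24 with a limma adjusted p of 0.194, and without any 1 of the 4 arrays compared. By limma 0 were lower beside 15.4% of all genes, with 0 at an unadjusted p below 0.05. A fit to the 8 organoid arrays alone, added after seeing the data, called 13 higher and 5 lower, beside 35.1% and 24% of all genes. Liver organoids exceeded intestine organoids in 5 members beside 14.2%: Plat by 3.41, F3 by 2.77, Plau by 1.14, C2 by 0.96 and C4bp by 0.79. By limma 0 were lower beside 12.2%, with 1 at an unadjusted p below 0.05, and the organoid fit called 8 higher and 2 lower, beside 23.8% and 20.6%. C4bp was lost without intestine organoid replicate 2 (0.41, adjusted p = 0.218), liver organoid replicate 1 (adjusted p = 0.146) or liver organoid replicate 2 (adjusted p = 0.0711), and the count was 3 without each of these. C2 was lost without any 1 of the 4 arrays compared or either differentiated organoid array, at adjusted p values of 0.05 to 0.168.

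Gallbladder and liver organoids were compared last. C4bp alone was higher in gallbladder organoids, by 1.13 ± 0.23 log2 units (2.18-fold, limma adjusted p = 0.0103), beside 6.17% of all genes, and this was lost without gallbladder organoid replicate 1 (adjusted p = 0.0896) or liver organoid replicate 2 (adjusted p = 0.0862). By limma 0 members were lower beside 6.52%, with 1 at an unadjusted p below 0.05. F3 came next, lower in gallbladder organoids by a difference of -0.85 ± 0.26 that did not pass (limma adjusted p = 0.0611). These 3 comparisons use the same organoid arrays, so they are not separate evidence. The variance of each gene was shared with the tissue arrays. The fit to the 8 organoid arrays alone called 7 members higher and 4 lower in gallbladder than in liver organoids, beside 21% and 18.8% of all genes, with C4bp at 1.13 (adjusted p = 0.00233), F3 at -0.85 (adjusted p = 7.93e-05) and Cfi at -0.53 (adjusted p = 0.00103).

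Withdrawal of nicotinamide, noggin and R-spondin 1 changed 2 members, a share close to that of all genes. F3 rose from 11.03 to 12.13 (difference 1.11 ± 0.26, 2.16-fold, limma adjusted p = 0.0388) and Plau from 7.48 to 8.51 (difference 1.03 ± 0.21, 2.04-fold, limma adjusted p = 0.0192), beside 2.8% of all genes called higher. By limma 0 fell beside 1.93%, with 1 at an unadjusted p below 0.05. Neither gene's arrays overlapped between the groups. Both calls were lost without any 1 of the 4 arrays compared, where adjusted p was 0.206 to 0.222 for F3 and 0.0839 to 0.168 for Plau. F3 was also lost without any 1 of the intestine and liver organoid arrays (adjusted p = 0.0644 to 0.066), under quantile normalisation (adjusted p = 0.0683) and under median centring (adjusted p = 0.0505).

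Factor I moved by a like amount without passing, from 8.82 to 10.09 (difference 1.26 ± 0.44, limma adjusted p = 0.171). Its 2 gallbladder tissue arrays differ by 1.53 and enter its SE. In the fit to the 8 organoid arrays alone 5 members were higher, namely Cfi (1.26 ± 0.08, adjusted p = 1.18e-05), F3 (adjusted p = 2.89e-05), Plau (adjusted p = 0.000863), Masp1 (0.81, adjusted p = 0.00121) and F8 (0.74, adjusted p = 0.00282), beside 12% of all genes. F13a1 was lower (-0.28, adjusted p = 0.0449), beside 11%. The fibrinogen chain Fgg, not called in either fit, read 5.65 and 5.49 after withdrawal and 5.41 and 5.77 before.

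Whether the organoid-tissue difference of a member was the same in each organ was tested as a difference of these differences. The tissues were whole and the organoids epithelial, so culture and cell content cannot be told apart in these terms. Against liver, gallbladder differed in 13 of 37 members, 11 with a higher value and 2 (F3 and F13a1) with a lower one, beside 39.8% of all genes in either direction. The members' share was thus below that of all genes. F3 rose by 1.03 in gallbladder and 4.52 in liver (difference -3.5 ± 0.37, limma adjusted p = 8.64e-05). Its means were 10 in gallbladder and 7.35 in liver tissue, and 11.03 and 11.87 in the organoids of these organs. Cfp fell by 1.17 in gallbladder and fell by 4.03 in liver (difference 2.86 ± 0.3, limma adjusted p = 8.78e-05). Without gallbladder tissue replicate 2 these were -3.73 for F3 and 2.83 for Cfp, both still called. The count depended on single arrays, being 32 without gallbladder tissue replicate 2 and 16 without replicate 1, and 5 to 7 without either gallbladder organoid array, either liver organoid array or liver tissue replicate 1.

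Against intestine, gallbladder differed in 23 members, 20 with a lower value and 3 (Plat, Plau and Cd55) with a higher one, beside 36.6% of all genes. Of the 20, only Fgb was also called lower in intestine culture, and C4bp and Cfi were called higher there. Many of the rest were already near their lowest group mean in intestine tissue, with little room to fall. F9 averaged 4.33 in intestine tissue and 4.19 in intestine organoids, C9 4.87 and 4.66, and Plg 6.76 and 6.57. Kng1 fell by 6.96 in gallbladder, while in intestine it averaged 5.85 in tissue and 5.41 in organoids (difference -6.53 ± 0.36, limma adjusted p = 2.6e-06). C4bp and Cfi were called in opposite directions in these organs, with differences of -4.5 ± 0.32 (limma adjusted p = 1.07e-05) and -5.12 ± 0.63 (limma adjusted p = 0.000276), though the C4bp call in gallbladder was lost without single arrays. Without gallbladder tissue replicate 2 the differences were -6.1 for Kng1, -4.58 for C4bp and -4.36 for Cfi, all still called, and the count was 24 and without replicate 1 it was 32. Both tests share the gallbladder arrays, so their counts are given side by side only.

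**Figure D5:**
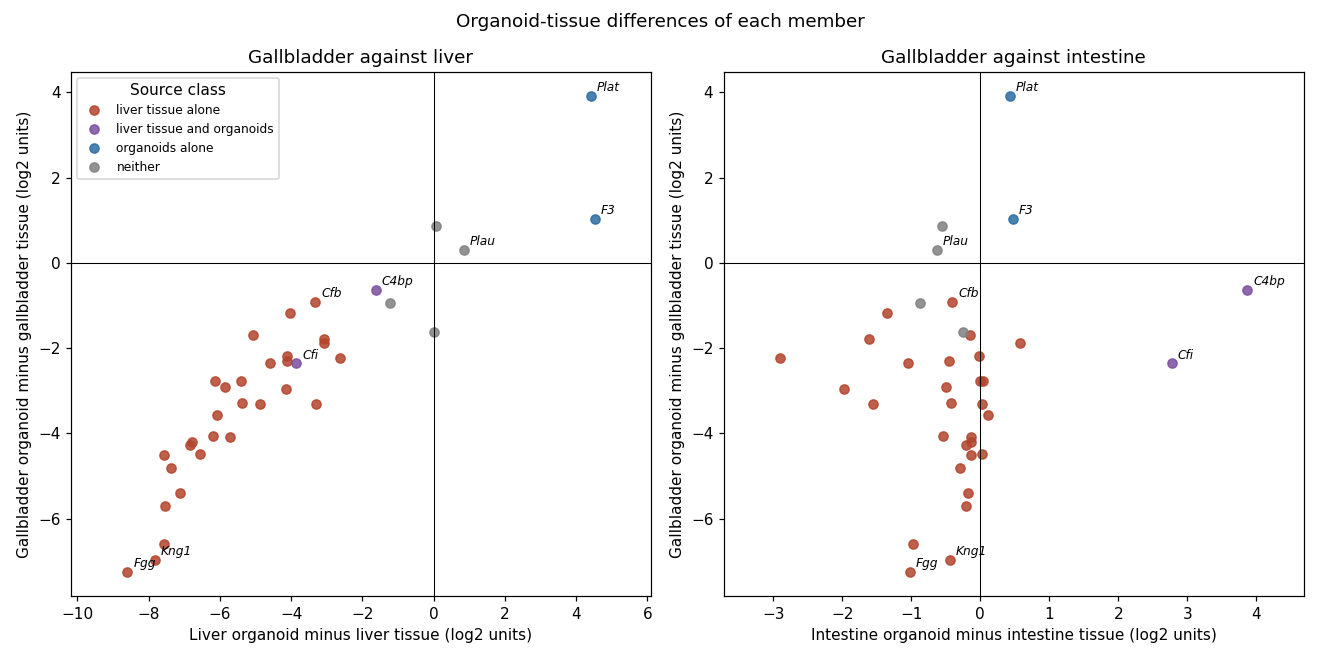
Organoid minus tissue difference of each of the 37 genes (log2 units) in gallbladder (vertical axis) against liver (left) and intestine (right), coloured by source group. Most genes lie at the lower left on the left panel and near 0 on the horizontal axis of the right panel, where C4bp at 3.87 and Cfi at 2.77 stand to the right.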

How the data were processed

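RNA of 14 samples was hybridised to Affymetrix gene arrays, 1 array per sample. The authors deposited log2 probe set signals made with RMA, per the submitters' processing notes; its version is not given in the sources used here. No detection call was used, so a low signal cannot be told from an absent transcript, and having 2 arrays in each group restricts how precise any value is. Of 35556 probe sets, 21789 had 1 gene symbol, 1621 several, and 12146 none in the annotation used, whose gene numbers matched a RefSeq table for 21698 and changed 0 symbols. The highest-mean probe set was kept for the 999 genes with several, leaving 19938 genes.

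Groups came from the sample titles. limma 3.58.1 in R 4.3.3 was fitted with 1 mean per group to all 14 arrays (7 residual degrees of freedom, 9.91 with the prior), and 9 comparisons and 2 differences between organs were tested 2-sided and adjusted by Benjamini-Hochberg over all genes. Calls needed adjusted p under 0.05. With 2 arrays on each side the smallest exact permutation p is 0.333. The fit was tested on simulated data with known changes and the same spread in every group. That test does not cover the unequal spread between groups seen here.

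The members and gene lists were chosen with earlier results of these data known. Every member is named. Of other pathway genes, at most the 4 called with the largest difference in a comparison are named, and full values are given for at most 3 members of a role, those with the largest called difference in a comparison, besides genes singled out after their values were seen. The alternatives were quantile normalisation, median centring, leaving out the dimmest 40% of genes, the mean of a gene's probe sets, fitting the groups compared alone, the replicate number as a block, another class minimum, and leaving out each array. A fit to the 8 organoid arrays was added after seeing the data.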

Additional observations from a re-analysis of the deposited data

Results flagged for a closer look

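Members whose organoid-tissue difference was not the same in 2 organs were singled out by a test of the difference itself. Between gallbladder and liver there were 13 such members and between gallbladder and intestine 23, beside 39.8% and 36.6% of all genes. The share for liver was below that of all genes. Both counts moved with single arrays, as given above for the gallbladder tissue replicates.

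C4bp and Cfi were called in opposite directions in gallbladder and intestine, though the C4bp call in gallbladder was lost without any 1 of 8 arrays and under median centring. C4bp differed between the organs by -4.5 log2 units and Cfi by -5.12, as limma interaction terms with adjusted p values of 1.07e-05 and 0.000276. Both genes had low signals in intestine tissue, 6.96 and 6.62 for C4bp and 6.06 and 7.19 for Cfi, and higher ones on both intestine organoid arrays.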

How the results depend on the processing

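None of the called member differences turned sign under any alternative run. Of 187 called differences, 138 were called with every array left out in turn and 49 were lost at least once. Fitting only the groups compared lost 52, quantile normalisation 17 and median centring 3. Leaving out the dimmest genes lost 0 of the 152 that could be tested, and averaging probe sets lost 0. With 2 arrays per group the calls depend on the variance shared across groups, which holds the spread of the gallbladder tissue arrays.

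Replicate numbers did not pair the samples: over 21 pairs of groups the correlation of same-numbered deviations was -0.1 to 0.14, with 2 over 0.1. With the replicate number as a block, 3 differences were lost: F3 on withdrawal (adjusted p = 0.0595), Fgb in intestine culture (0.0514) and 1 difference between organs of Masp1. The counts under the block were 2 lower in liver than intestine tissue, 1 higher on withdrawal and 2 higher in gallbladder than liver organoids.

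Members lower in liver than intestine tissue, 1 in the report, were 2 under quantile normalisation, 2 under centring, 2 without the dimmest genes and 0 with the 2 groups alone. Members higher on withdrawal, 2 in the report, were 1 under quantile normalisation, 1 under centring, 6 with the 2 groups alone and 5 with the 8 organoid arrays; members lower were 3 and 1 in the last 2 fits. With the 2 groups alone, 3 members were higher in liver than gallbladder tissue, 19 fell in gallbladder culture and 7 differed in culture change between gallbladder and liver. Between organoids, with the 2 groups alone, 6 were higher and 4 lower in gallbladder than liver, 13 higher and 5 lower in gallbladder than intestine, and 8 higher and 1 lower in liver than intestine. With the 8 organoid arrays these were 7 and 4, 13 and 5, and 8 and 2. At a class minimum of 1 log2 unit, 7 members counted for both sources and 2 for neither.

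Leaving out each array in turn gave 28 to 31 members higher and 1 to 4 lower in liver than intestine tissue, and 11 to 30 higher and 2 to 3 lower in liver than gallbladder tissue. In culture 2 to 3 rose and 26 to 32 fell in gallbladder, 2 to 3 and 31 to 32 in liver, and 2 to 3 and 5 to 12 in intestine, the 12 without either gallbladder tissue array. On withdrawal 0 to 4 rose and 0 to 0 fell, the 4 without either gallbladder tissue array. In gallbladder against liver organoids 0 to 2 were higher and 0 to 2 lower, against intestine organoids 5 to 7 and 0 to 1, and in liver against intestine organoids 3 to 6 and 0 to 1. Culture changes differed between gallbladder and liver in 5 to 32 members and between gallbladder and intestine in 17 to 32. The source classes held 29 to 29, 2 to 2, 2 to 3 and 3 to 4 members, Plau joining the organoid class without differentiated organoid replicate 2 or intestine organoid replicate 1.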

Other observations

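Of 51 other genes of these pathways that were listed, 45 were measured. From tissue to organoids 34 fell and 5 rose in liver by limma, beside 18.2% and 26.7% of all genes. In gallbladder 24 fell and 5 rose, beside 15.2% and 32.7%, and in intestine 19 fell and 2 rose, beside 15.6% and 20.2%. In liver the largest falls were those of Vtn, an adhesive plasma protein that blocks the terminal pathway (difference -7.44 ± 0.52), and Serpind1, the thrombin inhibitor heparin cofactor II (-7.34 ± 0.56). Next came Serping1, the C1 inhibitor (-7.01 ± 0.27), and Vsig4, a complement receptor of macrophages (-6.92 ± 0.57). Serping1 also fell by 6.04 in gallbladder and fell by 3.44 in intestine. In intestine C1qb, a chain of the antibody-binding C1q complex known from macrophages, fell by 3.59 ± 0.21 (limma adjusted p = 1.99e-06).

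These genes differed in both directions between organoids. In gallbladder against intestine organoids 8 of 45 were called higher and 2 lower, beside 20.2% and 15.4% of all genes. In liver against intestine organoids 10 were higher and 6 lower, beside 14.2% and 12.2%. Those named here were higher in gallbladder and liver than in intestine organoids. Clusterin (Clu), which keeps the membrane pore from forming, read 13.85 and 13.92 in gallbladder, 13.63 and 13.65 in liver and 10.11 and 9.67 in intestine organoids. The urokinase receptor Plaur read 11.5 and 11.66, 10.78 and 10.83, and 8.29 and 8.36 in the same groups. C4b, the target of C4b-binding protein, was higher in gallbladder than intestine organoids by 2.33 ± 0.42 (limma adjusted p = 0.00186).

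On withdrawal Pzp, a broad protease inhibitor, rose from 8.46 and 7.99 to 11.4 and 11.47 (difference 3.21 ± 0.37, limma adjusted p = 0.000809). Cd59a, which blocks the pore, rose by 1.2 and Procr, the protein C receptor, by 0.77, while Mcfd2, which helps export of factors V and VIII, fell by 0.88.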
